A study of Homo sapiens with 45 samples.

Results

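The expression of 40 genes of DNA replication and S phase was followed by bulk mRNA sequencing while the human embryonic stem cell line H9, which is an established line, differentiated toward spinal motor neurons. The genes were taken as a named list, each matched by its GENCODE 29 symbol to an Ensembl identifier, and all 40 were found among the 58233 genes of the deposited tables. Before day 0 the cells had been grown as neuromesodermal progenitors in N2B27 medium with CHIR99021, bFGF, SB431542, DMH1 and, for part of that time, the ROCK inhibitor Y-27632. Day 0 libraries are labelled control. For all later days, 175000 cells had been replated per 35 mm dish with retinoic acid at 100 nM and the Smoothened agonist SAG at 500 nM, again with Y-27632 over the first days, so the passage of time, the agents and the replating all separate day 0 from the rest. There were 45 libraries, 3 for each of 15 days, from day 0 to day 15 without day 3. All come from 1 cell line, and the labels call the libraries of a day bioreps without saying what was repeated, so p-values measure only the spread between these samples.

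Cells copy their DNA once per division, in S phase. In G1, CDC6 helps to load the ring of the MCM2 to MCM7 proteins onto replication origins, and CDC45 and the GINS complex turn the ring into the active helicase. Primase then starts the new strands, and DNA polymerases held by the sliding clamp PCNA extend them. Ribonucleotide reductase and thymidylate synthase supply the nucleotides, and histone chaperones pack the new DNA. Many genes of this machinery are textbook targets of the E2F transcription factors. Neural progenitors divide and neurons do not, and transcripts of these genes are commonly used to follow dividing cells in neural tissue.

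Library totals ran from 22835855 to 39066300 counts, and 23042 to 25099 genes had counts in a library. Mitochondrial genes held between 1.79% of the counts, in a day 8 library, and 5.29%, in a day 1 library, and the part of this share in the results was not tested. No pair of libraries from the same day agreed within counting noise (chi-square per gene 2.06 to 24.9 over 45 pairs). The day 0 label was checked against 5 neuromesodermal markers, whose summed level was 1516 to 1632 CPM (counts scaled to library size with TMM factors) on day 0 and 61.6 to 64.6 CPM on day 1. Of the 5, 4 fell between these days and 1 rose, by 2.16 on the log2 scale. The labels call the cells of all days neural progenitors. The summed level of 8 neural progenitor markers was 1739 to 2007 CPM on day 0 and 6183 to 6827 CPM on day 4. It was 5754 to 5887 CPM on day 8 and 4256 to 4435 CPM on day 15. No marker was at 0 in all libraries of any of these days. From day 0 to day 1 their highest log2 change was 13.2, so a marker of the 8 was close to 0 on day 0. The summed level of 12 neuron markers was 868 to 879 CPM on day 2 and 7188 to 7887 CPM on day 8, and none of the 12 was at 0 in all libraries of any day. In bulk RNA, fewer cells of a type and less RNA per cell cannot be told apart.

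The promoters are shown because the recognition letters of E2F factors recur in them. Changes in expression were not compared between genes with and without these letters. In the RefSeq promoter table (GRCh38.p14), 31 of the 40 genes had at least 1 window, and MCM4, MCM5, DSCC1, POLD3, RPA2, ATAD2, WDR76, CCNE2 and E2F8 had none. The 250 bases before each start were searched on both strands for TTTCCCGC, TTTGGCGC, TTTGCCGC, TTTCGCGC and TTCCCGCC. The first and the last of these share 7 letters, so overlapping matches were merged into 1 run. Strings that differ by 1 letter were not searched, such as TTTGGCGG, which is present in the window of CDC6 and in 1 window of CDC45. The counts therefore hold for these exact letters only. At least 1 match was present in 18 of the 31 genes (58.1%), against 5.76% of the 27305 genes in the table, and in 19 of 44 windows (43.2%), against 4.76% of 35116. HELLS, MCM3, MCM6, MCM7 and UHRF1 had 2 runs in a window. The letters CCAAT, the NF-Y motif, were found in 23 of the 31 genes (74.2%, against 37% of the table), and also in 14 of 16 G2/M genes (87.5%) and 6 of 7 neuron markers (85.7%) with a window. The E2F letters were in 2 of those 16 (12.5%) and in none of those 7. The letters TTTGAA, the cell cycle homology region of G2/M genes, were found in 4 of the 31 (12.9%, against 16.1%) and in 9 of the 16 G2/M genes (56.2%). A match describes letters and not binding.

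The 6 windows printed below, 5′ to 3′, are those in which at most 5 bases lie inside the gene's span in GENCODE 29, with E2F letters in capitals. MCM6 carries the same stretch in 2 places, which begin 152 and 90 bases before the start, PCNA carries 1 run at 60 bases, POLA1 1 at 137 bases and RRM1 1 at 223 bases. BRIP1 and CLSPN are the 2 of the 6 without these letters in this window.
MCM6 (chr2:135876444-135876693, minus strand): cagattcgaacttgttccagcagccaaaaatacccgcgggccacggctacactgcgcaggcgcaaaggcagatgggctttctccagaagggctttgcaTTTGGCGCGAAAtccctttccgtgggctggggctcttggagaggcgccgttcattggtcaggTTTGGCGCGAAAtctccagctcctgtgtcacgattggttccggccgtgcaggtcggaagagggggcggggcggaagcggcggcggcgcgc
PCNA (chr20:5126623-5126872, minus strand): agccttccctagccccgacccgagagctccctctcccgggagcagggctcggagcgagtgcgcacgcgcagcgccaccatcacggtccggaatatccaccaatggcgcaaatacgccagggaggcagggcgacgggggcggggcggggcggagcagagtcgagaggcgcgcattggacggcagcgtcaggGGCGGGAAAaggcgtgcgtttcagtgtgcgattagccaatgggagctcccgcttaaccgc
POLA1 (chrX:24693668-24693917, plus strand): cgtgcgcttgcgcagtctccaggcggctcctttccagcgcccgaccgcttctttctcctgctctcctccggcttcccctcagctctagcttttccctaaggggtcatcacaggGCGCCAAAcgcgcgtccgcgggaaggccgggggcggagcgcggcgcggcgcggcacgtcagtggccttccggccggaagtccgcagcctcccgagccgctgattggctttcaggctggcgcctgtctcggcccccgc
RRM1 (chr11:4094435-4094684, plus strand): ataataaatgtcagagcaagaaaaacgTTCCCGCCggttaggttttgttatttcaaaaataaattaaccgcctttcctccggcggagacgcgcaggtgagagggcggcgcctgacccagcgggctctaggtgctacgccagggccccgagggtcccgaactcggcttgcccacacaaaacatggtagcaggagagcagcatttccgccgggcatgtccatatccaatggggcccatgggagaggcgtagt
BRIP1 (chr17:61863529-61863778, minus strand): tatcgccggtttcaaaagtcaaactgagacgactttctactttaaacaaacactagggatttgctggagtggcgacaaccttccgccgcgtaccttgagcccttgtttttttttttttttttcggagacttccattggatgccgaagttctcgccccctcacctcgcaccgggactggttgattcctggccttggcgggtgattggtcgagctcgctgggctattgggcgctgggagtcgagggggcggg
CLSPN (chr1:35769979-35770228, minus strand): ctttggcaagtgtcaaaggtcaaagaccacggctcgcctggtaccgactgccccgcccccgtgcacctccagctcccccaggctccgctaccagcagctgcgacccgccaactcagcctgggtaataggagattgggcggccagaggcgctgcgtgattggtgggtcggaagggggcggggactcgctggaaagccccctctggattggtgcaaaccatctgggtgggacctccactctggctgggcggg

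Most of the genes were highest in the first days and lowest at the end. The daily mean CPM was highest on day 0 for 12 genes, on day 1 for 21 and on day 2 for 5 (MCM2, MCM6, MCM7, PCNA and CDCA7). This tally depends on the unit. By mean TPM (scaled for transcript length), DTL, HELLS, CHAF1B and BLM were not highest on day 0. By the same measure CDC45, GMNN, POLD3, UHRF1 and NASP were higher on day 2 than on day 1. MCM6 was nearly equal on these days, with 151.303 TPM on day 1 and 151.28 TPM on day 2. ATAD2 was highest on day 4 and CCNE2 on day 12. The lowest mean CPM fell on day 15 for 36 of the 40, on day 13 for BRIP1 and USP1, on day 8 for E2F8 and on day 0 for CCNE2. The lowest day depends on the unit as well. By TPM the day 0 libraries of ATAD2 (22.12 to 23.95) were below those of day 15 (24.33 to 26.91). The mean TPM of POLD3, DSCC1 and RAD51AP1 was lower on day 13 than on day 15. The day 15 level was 28.5% of the highest daily mean at the median, from 16.9% for E2F8 and 17.7% for CDCA7 to 52.3% for ATAD2 and 74.0% for CCNE2. All 40 differed among the 15 days (edgeR quasi-likelihood F test, adjusted p under 0.05), as did 92.3% of the 19437 genes tested, so the count of 40 is close to the background.

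**Figure D1:**
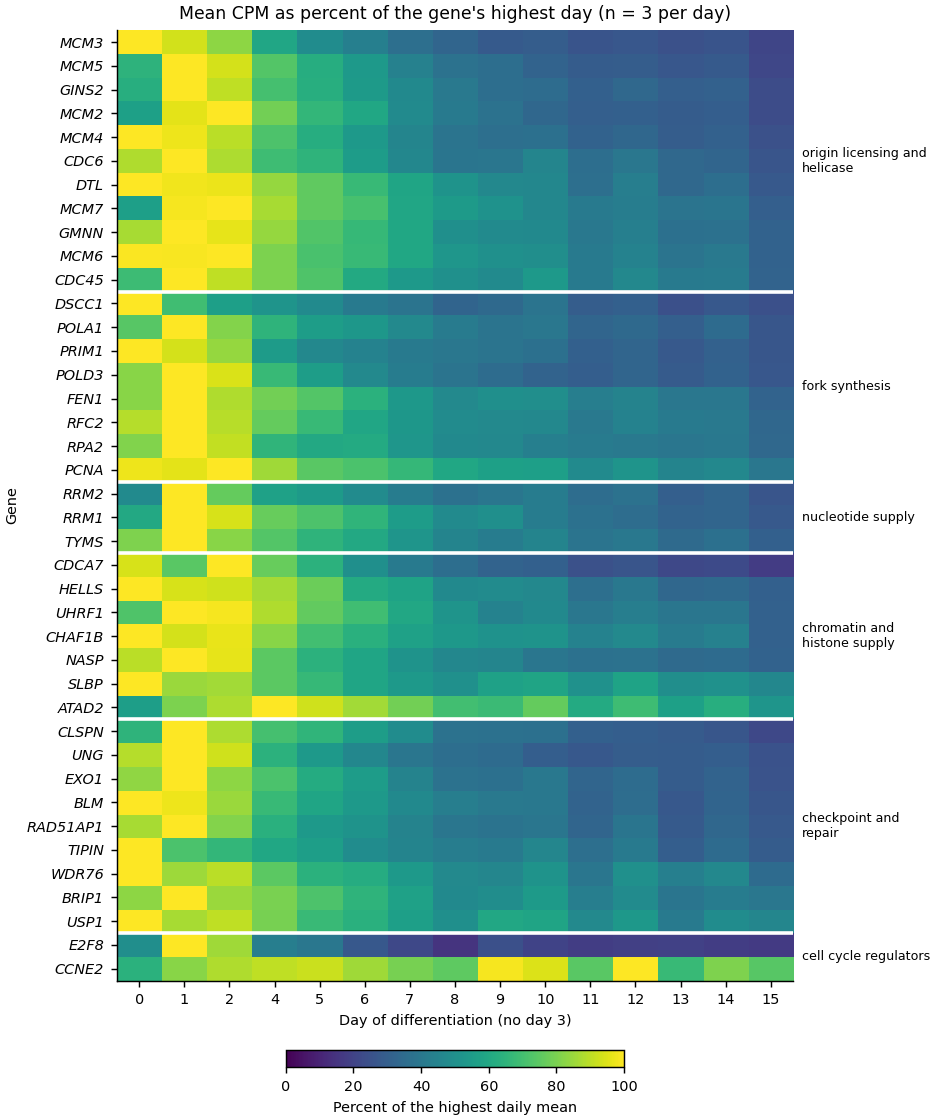
Each cell is the mean CPM of a gene (vertical axis, grouped by role) on a day (horizontal axis), as a percent of that gene's highest daily mean, with 3 libraries per day. Most genes are brightest between day 0 and day 2 and darkest on day 15, whereas CCNE2 is at 74.0% of its highest level on day 15.

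The pace of the decline differed between genes. The first day on which the mean CPM was below 50% of the highest, counted from that highest day, was day 4 for E2F8 and day 5 for MCM3, PRIM1 and DSCC1. It was day 6 for 5 genes, day 7 for 10 and day 8 for 11. CDC45, DTL and UHRF1 reached it on day 9, MCM6 and MCM7 on day 10, PCNA and CHAF1B on day 11 and SLBP on day 13, while ATAD2 and CCNE2 did not reach it. These days and their order depend on the unit. By mean TPM SLBP did not fall below 50% on any day, and PCNA did so only on day 15. USP1 was not below 50% on day 8 in TPM, and MCM3, PRIM1 and DSCC1 were not on day 5. Across the 15 daily means, the Pearson correlation with the median profile of the other 39 genes was 0.996 for RFC2, 0.995 for EXO1 and MCM6, 0.614 for ATAD2 and 0.085 for CCNE2. These correlations are descriptions over days that share the same libraries.

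Among the origin and helicase genes, MCM2 encodes a subunit of the helicase ring. MCM2 was at 339, 320 and 348 CPM on day 0, at 569, 555 and 584 CPM on day 1 and at 595, 600 and 584 CPM on day 2. It was at 476, 418 and 505 CPM on day 4, at 250, 229 and 248 CPM on day 8 and at 138, 140 and 136 CPM on day 15. The libraries of day 0 lay below all of those of days 1 and 2 and above all of those of days 8 and 15. MCM5, another subunit, was at 163, 161 and 178 CPM on day 0, at 260, 254 and 263 CPM on day 1 and at 240, 246 and 240 CPM on day 2. MCM5 then stood at 194, 172 and 205 CPM on day 4, at 102, 92.1 and 97.3 CPM on day 8 and at 55.3, 56.0 and 54.9 CPM on day 15, with no overlap between these days.

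The loader CDC6 and its counterpart geminin (GMNN), which blocks a second loading, had flatter starts. CDC6 was at 129, 114 and 122 CPM on day 0, at 136, 140 and 140 CPM on day 1 and at 119, 122 and 123 CPM on day 2. On days 4, 8 and 15 CDC6 was at 98.6, 96.6 and 90.6 CPM, at 53.7, 55.2 and 51.6 CPM and at 33.7, 34.4 and 40.6 CPM. The day 0 and day 2 libraries of CDC6 overlapped, and those of days 4, 8 and 15 did not. GMNN was at 93.4, 88.9 and 88.4 CPM on day 0, at 106, 108 and 97.3 CPM on day 1 and at 99.0, 102 and 98.9 CPM on day 2. GMNN was at 88.8, 83.7 and 88.9 CPM on day 4, at 49.8, 51.7 and 53.6 CPM on day 8 and at 30.7, 31.4 and 35.2 CPM on day 15. For GMNN the day 1 and day 2 libraries overlapped. Per length, the ratio of CDC6 to GMNN transcripts (in TPM, which corrects for transcript length) was 0.671 on day 0, 0.494 on day 8, 0.641 on day 10, 0.649 on day 13 and 0.521 on day 15 at the median of the libraries, so it did not move in 1 direction.

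The 6 subunits of the helicase ring, which are present in equal numbers in the protein complex, were unequal per length and did not keep their order. On day 0 the highest mean was that of MCM4, with 327 TPM, and the lowest that of MCM5, with 134 TPM. MCM7 was the highest on every other day, with 500 TPM on day 1 and 197 TPM on day 15, and the lowest was MCM5 or MCM6. The ratio of the highest to the lowest subunit was 2.44 on day 0, 3.30 on day 1 and between 3.45 and 3.82 on the later days. Summed over the 6 subunits, the level was 1311 TPM on day 0, 1658 TPM on day 2, 862 TPM on day 8 and 550 TPM on day 15.

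**Figure D2:**
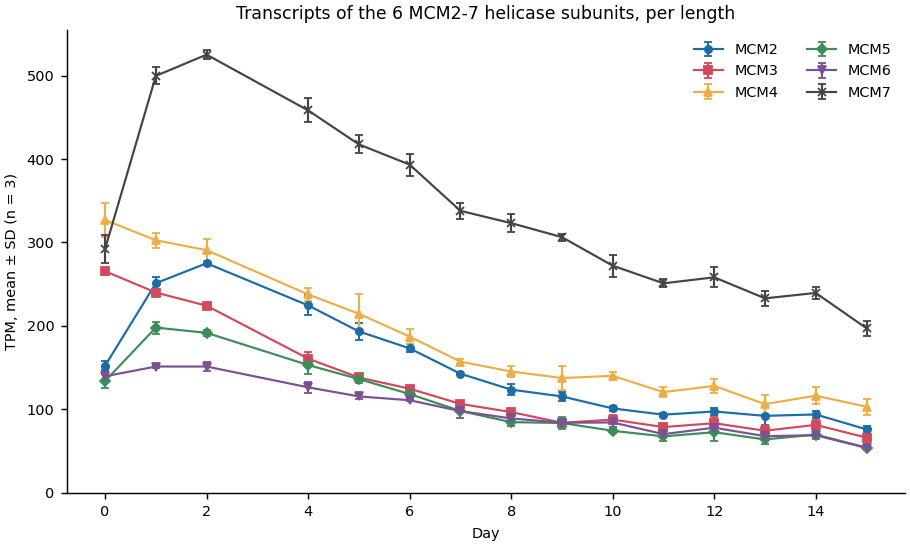
TPM of MCM2, MCM3, MCM4, MCM5, MCM6 and MCM7 (vertical axis, mean with SD of 3 libraries) by day (horizontal axis). MCM7 is above the other 5 subunits from day 1 on, and MCM4 is the highest on day 0 with 327 TPM.

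Of the fork genes, PCNA encodes the clamp that holds the polymerases on DNA. PCNA was at 334, 322 and 325 CPM on day 0, at 339, 325 and 299 CPM on day 1 and at 324, 339 and 342 CPM on day 2. It was at 289, 284 and 290 CPM on day 4, at 193, 205 and 201 CPM on day 8 and at 128, 131 and 142 CPM on day 15. The libraries of the first 3 days overlapped, and those of the later 3 did not. The other fork genes, in order of their day 15 level as a percent of the highest, were DSCC1 (24.4%), POLA1 (26.7%), PRIM1 (26.8%), POLD3 (27.1%), FEN1 (31.8%), RFC2 (33.4%) and RPA2 (33.6%), with PCNA at 39.8%. They encode, in that order, a part of an alternative clamp loader, a subunit of the polymerase that starts each strand, its primase partner, a subunit of polymerase delta, the nuclease that trims flaps between fragments, a clamp loader subunit and a single-strand binding protein.

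Of the nucleotide genes, RRM2 encodes the small subunit of ribonucleotide reductase and RRM1 the large one. RRM2 was at 213, 190 and 206 CPM on day 0, at 430, 427 and 412 CPM on day 1 and at 322, 323 and 323 CPM on day 2. RRM2 was at 250, 241 and 237 CPM on day 4, at 158, 163 and 154 CPM on day 8 and at 103, 109 and 122 CPM on day 15. No 2 of these 6 days overlapped. TYMS, which makes thymidylate, was at 366, 354 and 353 CPM on day 0, at 452, 447 and 428 CPM on day 1 and at 363, 364 and 366 CPM on day 2. TYMS was at 330, 311 and 333 CPM on day 4, at 196, 201 and 200 CPM on day 8 and at 127, 132 and 150 CPM on day 15. For TYMS days 0 and 2 overlapped and day 1 stood above both. The TPM ratio of RRM2 to RRM1 was between 0.957 and 1.06 in the day 0 libraries, between 1.14 and 1.19 on day 1 and between 0.787 and 0.999 over the libraries of days 2 to 9. On days 10 to 15 it was between 1.03 and 1.29, above every library of days 2 to 9.

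Among the chromatin genes, SLBP binds the stem loop of histone mRNAs. SLBP was at 83.0, 79.3 and 76.8 CPM on day 0, at 67.8, 69.1 and 66.3 CPM on day 1 and at 69.6, 66.6 and 70.1 CPM on day 2. It was at 62.3, 54.8 and 61.7 CPM on day 4, at 40.1, 40.9 and 39.3 CPM on day 8 and at 36.3, 35.9 and 38.6 CPM on day 15. By CPM day 0 was the highest day for SLBP in every library. By TPM its day 0 libraries (92.1 to 98.4) overlapped those of day 2 (88.7 to 96.7). The day 15 level was 17.7% of the highest for CDCA7, which acts with the chromatin remodeller HELLS, 30.8% for HELLS, 31.0% for UHRF1, which reads hemimethylated DNA, 31.2% for CHAF1B and 31.4% for the histone chaperone NASP. It was 46.3% for SLBP and 52.3% for ATAD2, a bromodomain protein.

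Of the checkpoint and repair genes, the day 15 level was lowest relative to the highest day for CLSPN, the adaptor of the ATR checkpoint (21.6%), and highest for USP1, a deubiquitinase that acts on PCNA (45.7%) and BRIP1, a helicase (39.5%). UNG, which removes uracil from DNA, was at 25.1%, EXO1, a nuclease, at 25.6%, BLM, a helicase, at 26.6%, RAD51AP1 at 28.0%, TIPIN, which travels with the fork, at 29% and WDR76 at 35.0%.

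Both cell cycle regulators were rare transcripts with different courses. CCNE2, a cyclin that drives entry into S phase, was at 8.69, 7.58 and 8.54 CPM on day 0, at 10.7, 11.5 and 9.82 CPM on day 1 and at 12.0, 11.7 and 10.6 CPM on day 2. CCNE2 was at 12.4, 12.4 and 10.4 CPM on day 4, at 8.92, 10.2 and 10.2 CPM on day 8 and at 8.27, 10.2 and 10.3 CPM on day 15. By CPM its day 0 libraries lay below those of day 1, its day 4 libraries lay above those of day 8, and those of days 8 and 15 overlapped. E2F8, a repressor among the E2F factors, was at 16.5, 14.7 and 14.7 CPM on day 0, at 29.4, 30.7 and 32.8 CPM on day 1 and at 25.6, 24.3 and 29.7 CPM on day 2. E2F8 was at 13.5, 13.2 and 13.1 CPM on day 4, at 4.41, 4.57 and 4.81 CPM on day 8 and at 4.99, 4.50 and 6.21 CPM on day 15. The day 8 and day 15 libraries of E2F8 overlapped, and days 0, 4 and 8 did not.

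**Figure D3:**
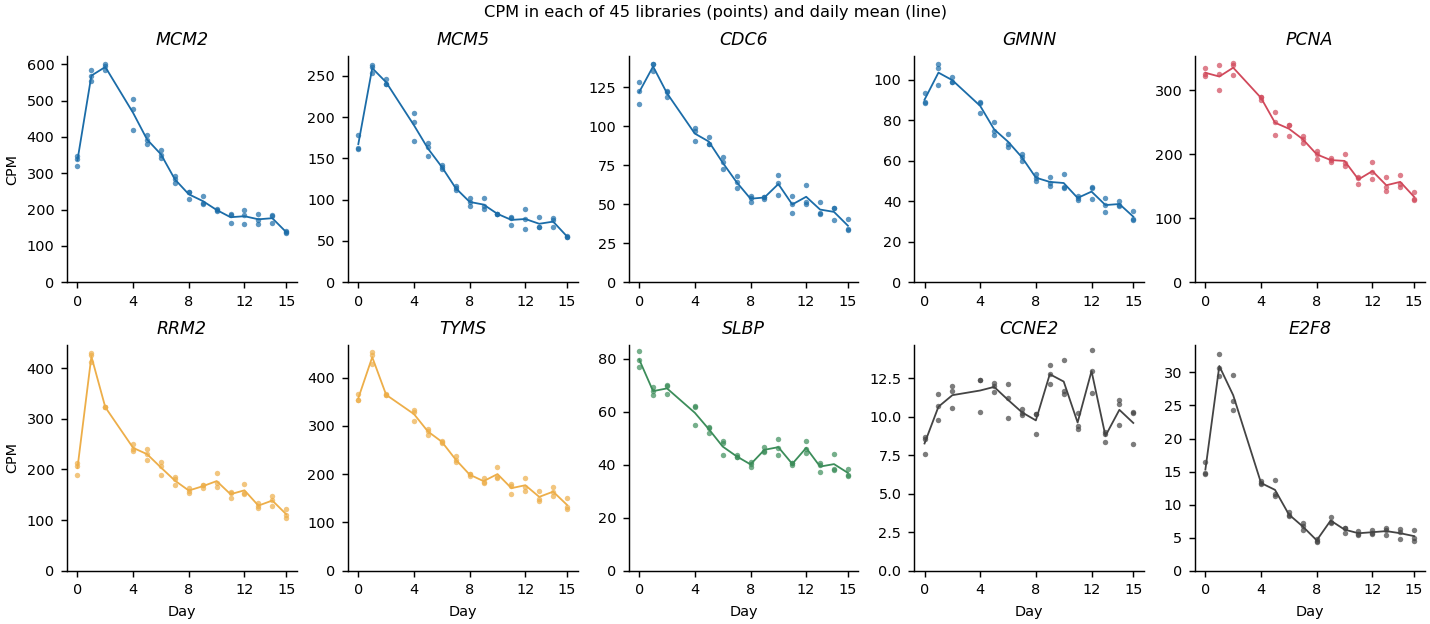
CPM (vertical axes, from 0) in each of the 45 libraries as points, with the daily mean as a line, against day (horizontal axes) for 10 genes. RRM2 stands above 400 CPM on day 1 and E2F8 near 31 CPM, and the CCNE2 points stay between 7.58 and 14.4 CPM.

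Day 1 was compared with day 0 to describe the first step after replating in retinoic acid and SAG. Most of the genes rose, led by the nucleotide enzyme RRM2 (203 to 423 CPM, log2 change 1.06 ± 0.06 SE, adjusted p = 2.58e-18, edgeR quasi-likelihood F test) and the repressor E2F8 (15.3 to 31.0 CPM, 1.01 ± 0.08). MCM7 (0.81 ± 0.05), MCM2 (0.76 ± 0.06), RRM1 (0.73 ± 0.04), GINS2, a helicase cofactor (0.67 ± 0.05), MCM5 (0.63 ± 0.07) and CLSPN (0.62 ± 0.05) followed. Of the 40 genes, 25 rose, against 29.5% of all genes tested, and 5 fell, against 31.6%, with 61.1% of all genes called in either direction. The median log2 change was 0.20 for the 40 genes and 0.00 for all genes.

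The rise was uneven within the complexes. Of 11 origin and helicase genes 7 rose. MCM2, MCM5 and MCM7 were among them, while MCM3 (−0.10 ± 0.06, adjusted p = 0.17, edgeR), MCM4 (−0.04 ± 0.05) and MCM6 (−0.01 ± 0.06) did not pass the test. DTL did not pass by counts (−0.03 ± 0.05) but was called higher by limma on log2(TPM + 1) (0.24 ± 0.09, adjusted p = 0.0179), with 78.4, 72.9 and 82.7 TPM on day 0 and 86.4, 92.9 and 98.1 TPM on day 1, so its highest day by CPM, day 0, is not its highest by TPM. Of 8 fork genes 5 rose, with POLA1 highest (0.43 ± 0.05), PCNA (−0.03 ± 0.06) and PRIM1 (−0.09 ± 0.07) did not pass, and DSCC1 fell by 0.53 on the log2 scale (37.0 to 25.6 CPM). All 3 nucleotide genes rose, with TYMS lowest (0.31 ± 0.06). Of 7 chromatin genes, ATAD2 (0.52 ± 0.07), UHRF1 (0.46 ± 0.07) and NASP (0.15 ± 0.04) rose and CDCA7 (−0.34 ± 0.07) and SLBP (−0.23 ± 0.05) fell. Of 9 checkpoint genes 5 rose, and TIPIN (−0.48 ± 0.09) and WDR76 (−0.23 ± 0.07) fell. CCNE2 rose by 0.37 ± 0.10. Over the same step, 18 of 20 G2/M genes rose and none fell, with a median log2 change of 0.49, and of 12 neuron markers 3 rose and 5 fell.

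From day 1 to day 2 more of the genes fell than rose, and most did not pass the test. RRM2 fell the most (423 to 323 CPM, log2 change −0.39 ± 0.06 SE, adjusted p = 2.39e-06, edgeR), and TYMS (−0.28 ± 0.06), RAD51AP1 (−0.30 ± 0.06), POLA1 (−0.29 ± 0.05) and EXO1 (−0.27 ± 0.06) fell as well. CDCA7 was the 1 gene that rose (87.2 to 117 CPM, 0.43 ± 0.07). In all, 14 of 40 fell, against 11.6% of all genes, and 1 rose, against 10.7%, with 22.3% of all genes called either way. The falls were 5 of 8 fork genes, 5 of 9 checkpoint genes, 2 of 3 nucleotide genes, GINS2 of the 11 origin and helicase genes and E2F8. The count of 14 was 22 when days 1 and 2 were fitted alone and 3 with limma on log2(TPM + 1), and it was between 8 and 12 when any 1 of the 6 libraries was left out, the lowest without day 2 replicate 1. MCM2 (0.06 ± 0.06) and MCM7 (0.02 ± 0.05) did not pass.

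Between day 2 and day 4 the decline covered most of the set. E2F8 fell from 26.5 to 13.3 CPM (log2 change −1.00 ± 0.09 SE, adjusted p = 4.7e-12, edgeR), PRIM1 from 50.2 to 32.8 CPM (−0.62 ± 0.07), UNG from 202 to 140 CPM (−0.53 ± 0.05) and MCM3 from 413 to 294 CPM (−0.49 ± 0.06). ATAD2 was the 1 gene that rose (113 to 128 CPM, 0.19 ± 0.07). Of the 40 genes 31 fell, against 15.7% of all genes tested, and 1 rose, against 18.6%, with 34.4% called either way, and the median log2 change was −0.28 against 0.00 for all genes. By role, 10 of 11 origin and helicase genes fell, 7 of 8 fork genes, all 3 nucleotide genes, 4 of 7 chromatin genes, 6 of 9 checkpoint genes and E2F8. CDC45, DSCC1, UHRF1, HELLS, TIPIN, BRIP1, USP1 and CCNE2 did not pass. Over the same step 19 of 20 G2/M genes fell and all 12 neuron markers rose, with summed neuron levels of 868 to 879 CPM on day 2 and 2060 to 2144 CPM on day 4. Of the 8 neural progenitor markers 4 rose and 4 fell. The part of those cells in the fall was not tested. The rise of ATAD2 was not called with limma on TPM, nor without any 1 of day 2 replicates 1 and 2 and day 4 replicates 1 and 2.

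Between day 4 and day 8 every one of the 40 genes fell, and in each the CPM values of the libraries of both days were apart. Overlap was not counted over all genes. In TPM the libraries of CCNE2 overlapped, with 11.9 to 13.9 on day 4 and 9.72 to 12.6 on day 8. The count of 40 was 39 with limma on log2(TPM + 1), with the 2 days fitted alone and without the filter on low counts. E2F8 fell from 13.3 to 4.60 CPM (log2 change −1.53 ± 0.11 SE, adjusted p = 4.54e-15, edgeR), CDCA7 from 90.0 to 42.6 CPM (−1.08 ± 0.07), MCM5 from 190 to 97.3 CPM (−0.97 ± 0.08), MCM2 from 466 to 242 CPM (−0.95 ± 0.06) and EXO1 from 52.9 to 27.8 CPM (−0.93 ± 0.06). CCNE2 had the smallest fall, from 11.7 to 9.77 CPM (−0.26 ± 0.10, adjusted p = 0.0243). Of all genes tested 26.1% fell, 26.9% rose and 53% changed either way. The median log2 change was −0.69 for the 40 genes and 0.00 for all genes. The role medians lay between −0.65 for the fork genes and −0.81 for the origin and helicase genes, apart from the pair of regulators with −0.89. Within the helicase ring, MCM6 (−0.62 ± 0.06) and MCM7 (−0.67 ± 0.05) had the smallest falls. All 20 G2/M genes fell, with a median of −0.48, and all 12 neuron markers rose, with a median of 1.74 and summed levels of 2060 to 2144 CPM on day 4 and 7188 to 7887 CPM on day 8. Of 8 glial markers 5 rose, at summed levels of 93.6 to 99.9 CPM and 153 to 155 CPM, with 1 marker at 0 in the day 4 libraries. Of the 8 neural progenitor markers 5 fell and 2 rose, with a median of −0.34. The part of these cells in the fall was not tested.

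**Figure D4:**
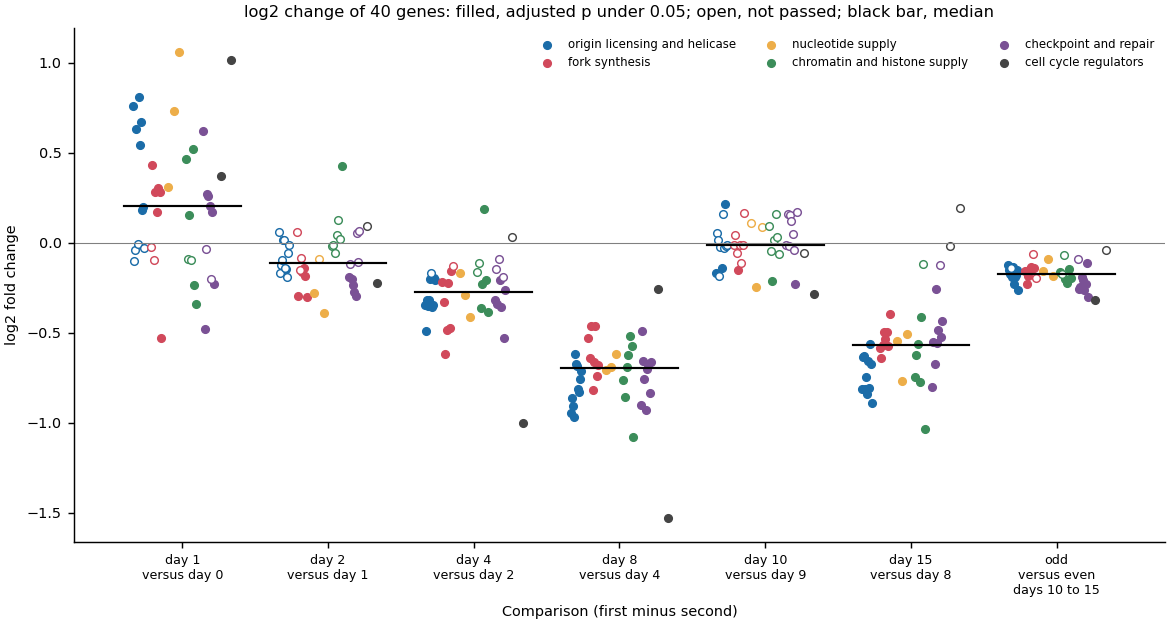
Log2 change of each of the 40 genes (vertical axis) in the 7 comparisons (horizontal axis), coloured by role, with filled points for an adjusted p under 0.05, open points for genes that did not pass and a black bar at the median. All points are filled and below 0 for day 8 versus day 4, and most are open for day 10 versus day 9.

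Day 10 was set against day 9, where few of the genes moved. RRM1 fell from 280 to 236 CPM (log2 change −0.25 ± 0.04 SE, adjusted p = 2.61e-05, edgeR), UNG from 76.6 to 65.4 CPM (−0.23 ± 0.05) and NASP from 488 to 421 CPM (−0.21 ± 0.04). E2F8 (−0.29 ± 0.11), MCM2 (−0.17 ± 0.06), POLD3 (−0.15 ± 0.05) and MCM7 (−0.14 ± 0.05) fell as well, and CDC6 rose from 54.3 to 62.9 CPM (0.21 ± 0.08, adjusted p = 0.0435). That made 7 of 40 genes lower, against 14.1% of all genes, and 1 higher, against 16.3%, with 30.4% called either way, and the median log2 change was −0.01. RRM2 did not pass (167 to 177 CPM, 0.09 ± 0.06), and the TPM ratio of RRM2 to RRM1 was 0.884 to 0.945 in the day 9 libraries and 1.11 to 1.22 in those of day 10. The count of 7 was 3 without day 9 replicate 2 or day 10 replicate 1 and 4 without day 9 replicate 3 or day 10 replicate 3. The rise of CDC6 was not called when the 2 days were fitted alone, with a term for the replicate number, without the filter on low counts, without any 1 of the 3 day 9 libraries or without day 10 replicate 3. Over this step 8 of 12 neuron markers fell, at summed levels of 9063 to 9851 CPM on day 9 and 6000 to 8316 CPM on day 10, and 4 of 20 G2/M genes rose. Of the 8 neural progenitor markers 5 fell and 1 rose, at summed levels of 5298 to 5415 CPM and 5565 to 6167 CPM.

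Between day 8 and day 15 the decline continued in nearly all of the genes. CDCA7 fell from 42.6 to 20.8 CPM (log2 change −1.03 ± 0.07 SE, adjusted p = 7.24e-15, edgeR), DTL, the substrate receptor of a ubiquitin ligase that acts at PCNA, from 76.7 to 41.4 CPM (−0.89 ± 0.05), MCM7 from 434 to 242 CPM (−0.84 ± 0.05) and MCM2 from 242 to 138 CPM (−0.81 ± 0.06). Of the 2 reductase subunits, RRM1 (−0.77 ± 0.04) fell more than RRM2 (−0.50 ± 0.06), a difference that was not tested. Of the 40 genes 36 fell, against 26.1% of all genes tested, and none rose, against 25.7%, with 51.7% called either way. The median log2 change was −0.57 against 0.00 for all genes. SLBP (−0.12 ± 0.06, adjusted p = 0.0687), USP1 (−0.12 ± 0.11), CCNE2 (−0.02 ± 0.10) and E2F8 (0.19 ± 0.12) did not pass. All 11 origin and helicase genes, all 8 fork genes and all 3 nucleotide genes fell, with medians of −0.74, −0.55 and −0.55. In the same comparison 19 of 20 G2/M genes fell. Of the 12 neuron markers 7 fell and 3 rose, with summed levels of 5608 to 6713 CPM on day 15, and of the 8 glial markers 7 rose, with summed levels of 373 to 493 CPM and 1 marker at 0 on day 15. Of the 8 neural progenitor markers 6 fell and none rose, with a median of −1.14. The part of these cells in the fall was not tested.

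From day 10 on, the decline alternated from day to day. In 32 of the 40 genes the means of days 12 and 14 were both above those of the neighbouring days, and in 32 those of days 11 and 13 were both below. The same counts were not made over all genes, so their background is not known. CCNE2 had daily means of 12.3, 9.64, 13.0, 8.77, 10.5 and 9.61 CPM on days 10 to 15, and POLA1 of 119, 97.2, 103, 90.7, 105 and 80.1 CPM. For POLA1 every library of days 12 and 14 was above every library of both neighbouring days, as for ATAD2 and RAD51AP1, and POLA1 was the 1 gene in which no library of an odd day overlapped one of an even day. Odd and even days from day 10 to day 15 were compared with a contrast that removes a linear trend. On odd days 33 of the 40 genes were lower, against 4.11% of all genes tested, and none was higher, against 1.93%. Of all genes, 6.03% were called either way. The p-values of this contrast measure the spread between libraries of the same day. They do not allow for variation from day to day among days of the same parity.

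The differences between odd and even days were small, with a median log2 change of −0.17 for the 40 genes against −0.01 for all genes. CCNE2 (−0.32 ± 0.06 SE, adjusted p = 0.000375, edgeR), WDR76 (−0.30 ± 0.05), DTL (−0.26 ± 0.03), RAD51AP1 (−0.26 ± 0.04) and TIPIN (−0.26 ± 0.06) were the farthest from 0. The lower genes were 10 of 11 origin and helicase genes, 6 of 8 fork genes, all 3 nucleotide genes, 5 of 7 chromatin genes, 8 of 9 checkpoint genes and CCNE2. MCM5, RPA2, DSCC1, HELLS, NASP, CLSPN and E2F8 did not pass. Of 20 G2/M genes 9 were lower, with a median of −0.10, and none of 12 neuron markers passed, with a median of 0.11. The growth protocol in the labels replaces the medium every other day and does not say on which days, so the parity of the day and the age of the medium cannot be told apart. The count of 33 was 12 when only the libraries of days 10 to 15 were fitted, and 22 without day 14 replicate 3.

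**Figure D5:**
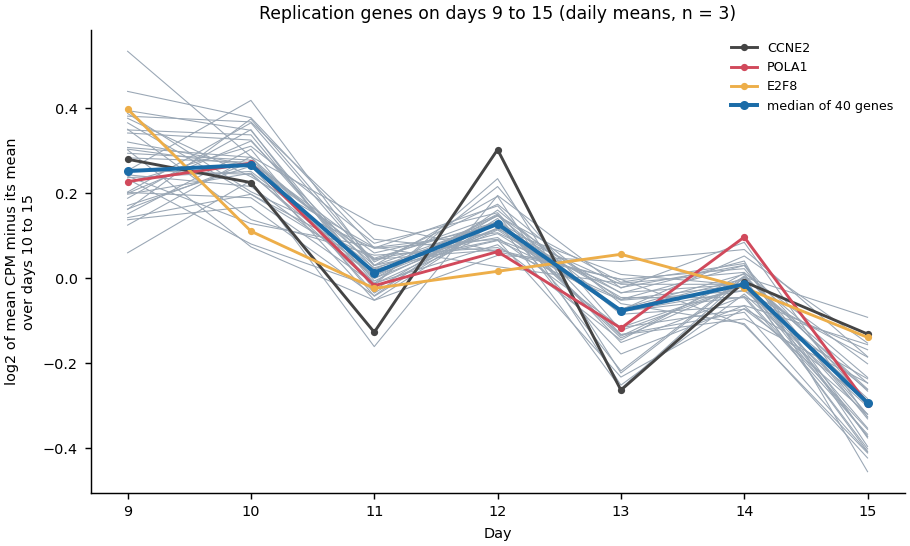
Log2 of the daily mean CPM, less the gene's mean over days 10 to 15 (vertical axis), by day (horizontal axis), for the 40 genes (grey), their median (blue), CCNE2, POLA1 and E2F8. The median is higher on days 12 and 14 than on the days beside them, and POLA1 and CCNE2 alternate in the same way.

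A further 78 genes of DNA replication and its control, which are not among the 40, moved in the same comparisons as follows. They include 16 E2F and RB regulators, which are not themselves replication proteins. From day 0 to day 1, 39 rose, against 29.5% of all genes tested, and 17 fell, against 31.6% (median log2 change 0.14). From day 1 to day 2, 4 rose, against 10.7%, and 18 fell, against 11.6%. From day 2 to day 4, 4 rose, against 18.6%, and 52 fell, against 15.7% (−0.21). From day 4 to day 8, 5 rose, against 26.9%, and 65 fell, against 26.1% (−0.54). From day 9 to day 10, 6 rose, against 16.3%, and 6 fell, against 14.1%. From day 8 to day 15, 5 rose, against 25.7%, and 58 fell, against 26.1% (−0.41). On odd days 34 were lower, against 4.11%, and none was higher, against 1.93% (−0.12). Among these 16 E2F and RB regulators, 9 rose and 3 fell from day 0 to day 1. TFDP2, a dimer partner of E2F proteins, was highest (112 to 416 CPM, 1.89 ± 0.06 SE). From day 4 to day 8, 12 of the 16 fell, with E2F7, the close relative of E2F8, lowest (137 to 68.7 CPM, −1.00 ± 0.06). ORC1, the largest subunit of the origin recognition complex, fell from 78.1 to 40.8 CPM in that step (−0.94 ± 0.06) and POLD1, the catalytic subunit of polymerase delta, from 128 to 69.3 CPM (−0.89 ± 0.08).

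Reads of some of the 40 genes could be shared with overlapping genes, since the strand used for counting is not given in the sources used here. MCM2 overlaps TPRA1, MCM7 overlaps AP4M1 and GINS2 overlaps GSE1 on the opposite strand, RRM2 overlaps AC007240.1 on the same strand, TYMS overlaps ENOSF1 on the opposite strand, FEN1 overlaps FADS2 and TMEM258, PRIM1 overlaps NACA, HELLS overlaps TBC1D12, CHAF1B overlaps MORC3 and CCNE2 overlaps INTS8. Annotated pseudogenes held at most 0.13% of the counts of any of the 40.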

How the data were processed

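Libraries came from polyadenylated RNA and an mRNA kit, per the labels. The submitters' processing notes name bcl2fastq 2.20.0, RSEM (no version) and the build GRCh38. The aligner, the annotation and the strand setting were not given in the sources used here. RSEM gave the authors' deposited expected counts, of which 92.5% are whole, and these were rounded to whole numbers here. The TPM values, which the authors scaled for transcript length and library total, were deposited beside them and served here to compare genes with each other and as an alternative. Of 58233 genes, 338 have no GENCODE 29 entry, with 0.0276% of the counts.

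One edgeR 4.0.16 model in R 4.3.3 held all 45 libraries, with day as a factor, TMM factors (0.925 to 1.06), the default low-count filter by day (19437 genes left, all 40 among them), robust quasi-likelihood dispersions and 30 residual degrees of freedom. Calls used Benjamini-Hochberg adjusted p-values over all genes tested, at 0.05. An exact permutation of 3 against 3 libraries has a smallest p of 0.1, so calls rest on the spread shared over days and genes. Levels are TMM-scaled CPM.

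The 40 genes and all gene lists were chosen with earlier results of these data known. By rule, the text may name any of the 40, the highest and lowest gene of each role in a comparison and the called extremes of the other lists, and 10 genes are given library by library. The alternatives tried were DESeq2 1.42.0; DESeq2 size factors; 37282 unfiltered genes; limma 3.58.1 on log2(TPM + 1) or log2(TPM + 0.1), for 18075 genes reaching 1 TPM in 3 libraries; a 2-fold minimum; a replicate term; only the days compared; no linear trend; and 1 library left out at a time. The legacy fit of edgeR was added after seeing the data. The steps were tested on simulated data.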

Additional observations from a re-analysis of the deposited data

How the results depend on the processing

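All 40 genes differed over the 15 days under each alternative run. Of 280 results for single genes, DESeq2 gave 275 the same call and direction and edgeR's legacy fit, added after seeing the data, 278. With the replicate number as a block, 278 kept their call, the genes higher on day 10 than on day 9 went from 1 to 0, and no other count moved by over 1.5 times. The replicate numbers were not taken to pair the libraries. Deviations of same-numbered libraries correlated between −0.0506 and 0.0702 in the 6 comparisons of 2 days, and between −0.16 and 0.22 over all pairs of days, against −0.253 to 0.199 for other numbers.

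At a change of at least 2-fold the counts were 2 higher and 0 lower for day 1 versus day 0, 2 lower for day 8 versus day 4, 1 lower for day 15 versus day 8 and 0 in each of the other comparisons, by the construction of that rule. Without the filter on low counts, day 10 versus day 9 had 0 higher and 3 lower. With the days of a comparison fitted alone, day 2 versus day 1 had 3 higher and 22 lower, day 10 versus day 9 had 0 higher and 4 lower, and 12 genes were lower on odd days. With limma on log2(TPM + 1) and on log2(TPM + 0.1), day 2 versus day 1 had 2 higher and 3 lower and day 4 versus day 2 had 0 higher. With no filter on TPM, day 1 versus day 0 had 3 lower, day 2 versus day 1 2 higher and 2 lower, day 4 versus day 2 0 higher, day 10 versus day 9 0 higher, and 14 genes were lower on odd days. DTL, not called from day 0 to day 1 by counts, reversed to 0.2429, 0.2455 and 0.2429 in the 3 fits on TPM. The cause of these shifts was not tested.

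Leaving out 1 library at a time gave 24 to 25 higher and 5 lower for day 1 versus day 0, 1 higher and 8 to 12 lower for day 2 versus day 1, 0 to 1 higher and 30 to 33 lower for day 4 versus day 2, 39 to 40 lower for day 8 versus day 4, 0 to 2 higher and 3 to 7 lower for day 10 versus day 9, 0 to 1 higher (1 only without day 15 replicate 2) and 36 to 37 lower for day 15 versus day 8, and 22 to 35 lower on odd days. Depth limits the rarest genes most, among them CCNE2, at 7.58 to 14.4 CPM in the 45 libraries, and E2F8.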

Other observations

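Some genes outside the 40 moved against most of the 40 in a comparison, and some of the changes given here went with them. SAMHD1, which breaks down deoxynucleotides, fell from 23.3 to 15.1 CPM between day 0 and day 1 (log2 change −0.63 ± 0.09 SE, adjusted p = 5.16e-08, edgeR), where RRM2 rose, and rose from 16 to 25.0 CPM between day 4 and day 8 (0.64 ± 0.08), where RRM2 fell. RRM2B, the p53-responsive form of the small reductase subunit, fell from 50.5 to 37.8 CPM between day 1 and day 2 (−0.42 ± 0.10), where RRM2 fell too. Limma on log2(TPM + 1) did not call that fall (adjusted p = 0.15). RRM2B then rose from 37.8 to 51.0 CPM between day 2 and day 4 (0.43 ± 0.10), where RRM2 fell. It rose from 45.4 to 64.4 CPM between day 9 and day 10 (0.51 ± 0.10). In that last step 2 of the 8 nucleotide genes outside the 40 were higher and 0 lower.

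POLD4, a small subunit of polymerase delta, rose from 1.63 to 3.74 CPM between day 4 and day 8 (1.2 ± 0.30), where the other 18 fork genes of its list fell. RBL2, the pocket protein p130 of quiescent cells, rose from 36.7 to 45.9 CPM between day 4 and day 8 (0.32 ± 0.05) and from 45.9 to 64.9 CPM between day 8 and day 15 (0.50 ± 0.05), and E2F1 fell from 55.8 to 29.6 CPM between day 8 and day 15 (−0.91 ± 0.07). These genes were named by a rule on the extremes of each list.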
